A study of Mus musculus with 38 samples.

Results

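Sodium handling was examined in the left ventricle through 5 genes that have been proposed as cardiac sites of empagliflozin action: Slc5a1, Slc5a2, Scn4b, Atp1b1 and Fxyd1. They were taken by name from the 29564 genes of the deposited tables, and were chosen with earlier results of these data known. The 38 libraries came from 1 wild-type C57BL6 mouse each, for which the labels give Female as the sex and no age, whereas the methods describe male mice. The non_failing group (n = 8) held control mice whose labels give Vehicle as the treatment. The other 3 groups shared the model of heart failure with preserved ejection fraction (HFpEF), in which L-NAME is given together with a high-fat diet. L-NAME is an inhibitor of nitric oxide synthesis. These mice received vehicle (HFpEF+Veh, n = 8), TYA-018, an inhibitor of the deacetylase HDAC6 (HFpEF+TYA-018, n = 11), or empagliflozin, an inhibitor of SGLT2 (HFpEF+SGLT2i, n = 11), and the title gives 3 months as the length of treatment, whereas the methods describe a shorter one. No empagliflozin or TYA-018 was given to control mice, so an effect of either drug outside the HFpEF model was not measured. Libraries are named here by group and mouse number, as in HFpEF+Veh V2532.

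Heart muscle cells take up sodium with each beat through voltage-gated sodium channels and through carriers that exchange or co-transport it, and the sodium pump returns it to the outside. Scn4b encodes a beta subunit that binds the pore of the channel and shapes how it opens and recovers. Atp1b1 encodes the main beta subunit of the pump, which brings the catalytic alpha subunit to the membrane. Fxyd1 encodes phospholemman, a small membrane protein that holds the pump back until it is phosphorylated. Slc5a1 and Slc5a2 encode SGLT1 and SGLT2, which carry glucose into cells together with sodium. SGLT1 is best known from the intestine and SGLT2 from the proximal tubule of the kidney, where empagliflozin acts.

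Levels between genes are given in transcripts per 1000000 (TPM), which accounts for transcript length. Over the 38 libraries the median level was 158 TPM for Fxyd1, 36.2 TPM for Atp1b1, 7.81 TPM for Scn4b, 0.0788 TPM for Slc5a1 and 0 TPM for Slc5a2. The ranges of Fxyd1 (105 to 221 TPM), Atp1b1 (23.4 to 65.9 TPM), Scn4b (2.39 to 19.0 TPM) and Slc5a1 (0.0125 to 0.268 TPM) did not overlap, so the order of these levels was the same in every library. Scn4b was the most variable of the 3 abundant genes, with a highest library 7.98 times its lowest, against 2.82 times for Atp1b1 and 2.10 times for Fxyd1.

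The libraries held 21.5 to 59.3 M expected counts (M, 1000000 counts), which are the reads assigned to genes by the authors' quantification (median 29.5 M). Libraries of 40 M or more numbered 1 in non_failing (V2508), 1 in HFpEF+Veh (V2532), 1 in HFpEF+TYA-018 (V2559) and 4 in HFpEF+SGLT2i (V2562 to V2565). Cardiomyocyte marker genes were abundant in every library, with a summed level of 22802 to 42328 counts per 1000000 (CPM). Hepatocyte genes stood apart. The sum of 6 of them was 1855 CPM in HFpEF+Veh V2523, 24.1 to 425 CPM in the non_failing libraries and 0.209 to 9.59 CPM in the libraries of the drug groups. Log2 fold changes that moved by over 0.1 when V2523 or V2532 was left out are given for the abundant members with and without that library. In bulk tissue, fewer cells of a type and less RNA per cell cannot be told apart.

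The genes were placed on GRCm38 with GENCODE M21. Slc5a1 (ENSMUSG00000011034.6) lies at chr5:33104219-33162870 on the plus strand, and its span holds the pseudogenes Gm15936 on the same strand and 5033423K11Rik on the other. Slc5a2 (ENSMUSG00000030781.13) lies at chr7:128265657-128272430 on the plus strand, and its last 1052 bases are shared with BC017158 on the other strand. Scn4b (ENSMUSG00000046480.6) lies at chr9:45138395-45154152 on the plus strand and overlaps no other annotated gene. Atp1b1 (ENSMUSG00000026576.12) lies at chr1:164437109-164458355 on the minus strand and shares 617 bases with Nme7 on the other strand. Fxyd1 (ENSMUSG00000036570.14) lies at chr7:31051678-31057199 on the minus strand. The annotation gives 1 transcript each for Scn4b (4982 bases, 684 of them coding) and Slc5a1 (4104 bases, 1995 coding), 4 for Atp1b1, 12 for Slc5a2 and 17 for Fxyd1. The library kit kept strand, and how reads from the overlapping ends were divided was not tested.

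Promoter sequences from RefSeq (GRCm38.p6) were matched for Slc5a1, Scn4b, Atp1b1 and Fxyd1, and the 250 bases before the annotated start were searched on both strands for 6 motifs. These were TATAAA, a form of the TATA box, its variant TATATA, the CCAAT box written CCAAT, the GC box GGGCGG, the palindromic E-box CACGTG and the nuclear receptor half-site AGGTCA. Those of Atp1b1 and Slc5a1 are shown because this pair sets an abundant beside a scarce gene of the same tissue. The Atp1b1 window is chr1:164458356-164458605 on the minus strand and the Slc5a1 window is chr5:33103969-33104218 on the plus strand. Both are written 5′ to 3′, with the motifs found in capitals.
Atp1b1: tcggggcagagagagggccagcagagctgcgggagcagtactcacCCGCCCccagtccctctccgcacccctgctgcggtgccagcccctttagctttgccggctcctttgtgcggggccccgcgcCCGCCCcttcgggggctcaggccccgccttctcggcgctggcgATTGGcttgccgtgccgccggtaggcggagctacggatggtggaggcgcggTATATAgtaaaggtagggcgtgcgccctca
Slc5a1: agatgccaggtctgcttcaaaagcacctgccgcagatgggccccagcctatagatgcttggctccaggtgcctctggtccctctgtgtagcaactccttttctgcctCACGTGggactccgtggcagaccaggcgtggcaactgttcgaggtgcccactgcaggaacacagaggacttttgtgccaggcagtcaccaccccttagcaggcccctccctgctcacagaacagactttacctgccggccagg
The Atp1b1 window held TATATA with its first base 30 bases before the start, 1 CCAAT and 2 GGGCGG, read here as their reverse complements ATTGG and CCGCCC. The Slc5a1 window held CACGTG, 143 bases before the start, and none of the other motifs. Over the 32851 promoters of the same length, 5.25% held TATATA, 12.4% TATAAA, 33.8% CCAAT, 32.7% GGGCGG, 6.02% CACGTG and 14.0% AGGTCA. The Scn4b window, at chr9:45138374-45138623, held 1 CCAAT, and 229 of its 250 bases lie in the first exon as GENCODE draws it. The Fxyd1 window, chr7:31054854-31055103, precedes the RefSeq start, lies within the gene as GENCODE draws it, and held none of the 6 motifs. A match of letters is a description of the window, and no match says only that these letters are missing from it.

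Fold changes were tested with edgeR's quasi-likelihood test over all 13765 genes that passed a filter on low counts, in 1 model of the 4 groups, and a gene was called at a Benjamini-Hochberg adjusted p under 0.05. Slc5a2 failed the filter, and the other 4 members passed it. Under a stricter filter, and in fits of 2 groups without non_failing, 3 members passed and Slc5a1 did not. Scn4b was called in HFpEF+TYA-018 against non_failing, where 7.39% of all genes were called, and in HFpEF+SGLT2i against non_failing, where 6.45% were called. With no covariate and all libraries in the model, no member was called in the other 4 comparisons by edgeR, DESeq2 or limma. Of all genes tested, 3.15% were called in HFpEF+Veh against non_failing, 1.93% in HFpEF+TYA-018 against HFpEF+Veh, 0.850% in HFpEF+SGLT2i against HFpEF+Veh and 0.00% between the drugs. The 117 genes called in HFpEF+SGLT2i against HFpEF+Veh fell to 2 when V2523 was left out. Between the drugs, edgeR gave 1821 genes at an unadjusted p under 0.05, DESeq2 called 184 and limma called 0. At an unadjusted p under 0.05 the tested members numbered 2, 1, 0 and 1 in these 4 comparisons, where 15.9%, 17.5%, 10.05% and 13.2% of all genes had such a p. The HFpEF+Veh group serves 3 of the comparisons and the non_failing group 3, so their results are not independent of each other.

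**Figure D1:**
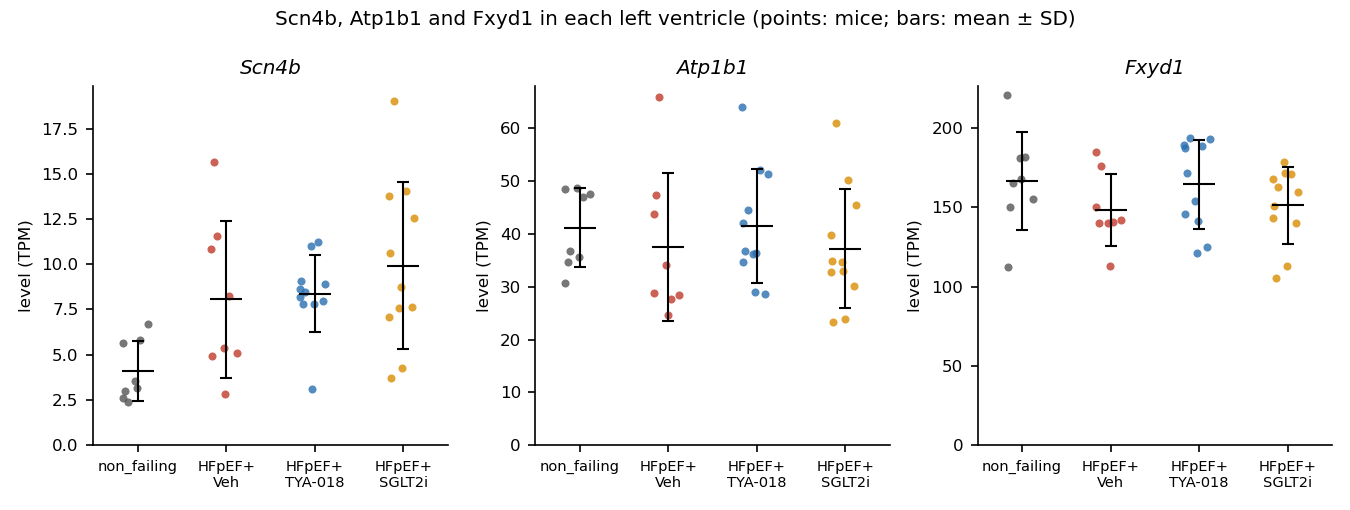
Level in TPM (vertical axes, from 0) of Scn4b, Atp1b1 and Fxyd1 in each of the 38 left ventricles by group, with points for mice and bars for the mean ± SD. Scn4b lay between 2.39 and 6.67 TPM in non_failing hearts and reached 19.0 TPM in HFpEF+SGLT2i, while the 4 groups overlapped for Atp1b1 and Fxyd1.

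Scn4b, the channel beta subunit, was higher in the HFpEF hearts of both drug groups than in control hearts. The non_failing libraries lay between 2.39 and 6.67 TPM with a median of 3.35 TPM. The HFpEF+Veh libraries lay between 2.81 and 15.7 TPM (median 6.79), the HFpEF+TYA-018 libraries between 3.11 and 11.2 TPM (median 8.44) and the HFpEF+SGLT2i libraries between 3.72 and 19.0 TPM (median 8.77). Every group overlapped with the others, but 10 of 11 HFpEF+TYA-018 libraries and 9 of 11 HFpEF+SGLT2i libraries lay above the highest non_failing library.

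Compared with non_failing hearts, Scn4b was 2.44-fold higher in HFpEF+SGLT2i (log2 fold change 1.29, SE 0.28, 95% interval 0.72 to 1.86, adjusted p = 0.00310, edgeR), with 11 of 11 libraries above the control mean in log2 CPM scaled by TMM, the scale of the fit, and 10 of 11 in TPM. It was 2.10-fold higher in HFpEF+TYA-018 (log2 fold change 1.07, SE 0.28, interval 0.51 to 1.64, adjusted p = 0.0129, edgeR), with 10 of 11 libraries above the control mean on both scales. In HFpEF+Veh the fold was 1.86 (log2 fold change 0.90, SE 0.29, interval 0.30 to 1.49) and was not called (adjusted p = 0.0897, edgeR). This log2 fold change was 0.67 without V2532 (adjusted p = 0.187, edgeR) and 0.52 without V2523 and V2532 (adjusted p = 0.269, edgeR). With 1 surrogate variable in the model the difference was called, at a log2 fold change of 0.74 (adjusted p = 0.0452, edgeR).

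Neither drug moved Scn4b past the threshold against HFpEF+Veh. The log2 fold change was 0.18 for TYA-018 (interval -0.37 to 0.73, adjusted p = 0.774, edgeR) and 0.39 for empagliflozin (interval -0.16 to 0.94, adjusted p = 0.667, edgeR). Between the drugs it was -0.21 for TYA-018 against empagliflozin (interval -0.71 to 0.29, adjusted p = 0.808, edgeR). Without V2532 the first 2 were 0.40 and 0.61 (adjusted p = 0.442 and 0.300, edgeR), and without the deep library V2562 the last was -0.08 (adjusted p = 0.935, edgeR). The first was lowest at 0.05 without V2530, and the second at 0.26 without V2562. These intervals still allow a rise of 1.92-fold with empagliflozin over HFpEF+Veh. The calls against non_failing in 2 groups and the missing call in HFpEF+Veh therefore do not show that the treated groups differed from HFpEF+Veh. Hepatocyte and cardiomyocyte markers moved in the comparisons with non_failing too. The 6 hepatocyte genes were all called lower in HFpEF+TYA-018 (median log2 fold change -6.66) and in HFpEF+SGLT2i (median -5.97). In HFpEF+Veh 0 of them were called. Their sum there had a median of 3.47 CPM, beside 67.4 CPM in non_failing, and reached 1855 CPM in V2523. Of 8 cardiomyocyte markers, 1 was called lower in HFpEF+TYA-018 and 4 in HFpEF+SGLT2i, and 0 higher. Their part in the values of Scn4b was not tested.

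Depth moved with Scn4b and is given here beside it. In HFpEF+SGLT2i the 4 libraries of 40 M counts or more lay between 12.6 and 19.0 TPM, and the other 7 between 3.72 and 10.6 TPM, without overlap. The deep HFpEF+Veh library V2532 was the highest of its group at 15.7 TPM, whereas the deep non_failing library V2508 was at 3.54 TPM and the deep HFpEF+TYA-018 library V2559 at 9.08 TPM. The libraries under 40 M averaged 8.31 TPM in HFpEF+TYA-018 and 7.10 TPM in HFpEF+SGLT2i, whereas all libraries averaged 8.38 and 9.92 TPM. Over the 38 libraries, after removal of group means, log2 CPM of Scn4b and log2 depth had a Pearson r of 0.62. In the libraries under 40 M counts alone, a subset chosen after seeing the data, the difference of HFpEF+TYA-018 from non_failing was 1.02 (adjusted p = 0.0134, edgeR). That of HFpEF+SGLT2i fell to 0.77 and lost the call (adjusted p = 0.0771, edgeR). With log2 depth as a covariate, also chosen after seeing the data, both were called (1.09 and 1.13, adjusted p = 0.00141 and 0.00105, edgeR), as was HFpEF+Veh against non_failing (0.81, adjusted p = 0.0428, edgeR).

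**Figure D2:**
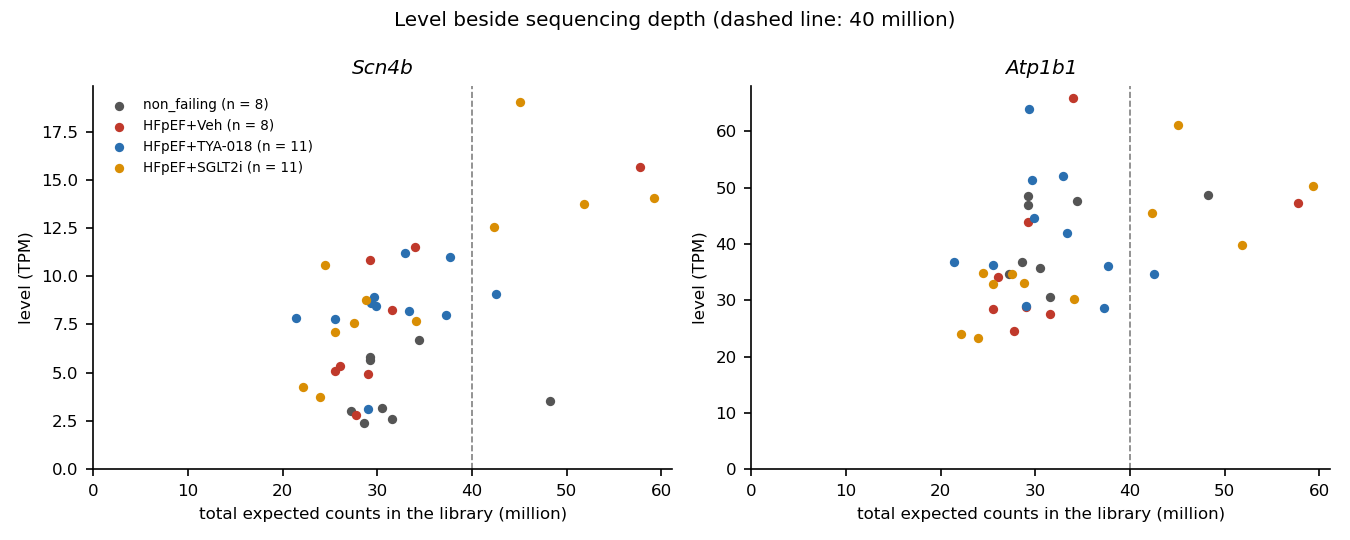
Level in TPM (vertical axes) of Scn4b and Atp1b1 beside the total expected counts of the library in M (horizontal axes), with 1 point per mouse coloured by group and a dashed line at 40 M. The 4 deep HFpEF+SGLT2i libraries lie at 12.6 to 19.0 TPM of Scn4b, above the other 7 of their group.

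Atp1b1, the pump's beta subunit, was not called in any comparison in the model of the 4 groups without covariates. The non_failing libraries lay between 30.6 and 48.8 TPM (median 41.9), the HFpEF+Veh libraries between 24.6 and 65.9 TPM (median 31.5), the HFpEF+TYA-018 libraries between 28.7 and 64.0 TPM (median 36.8) and the HFpEF+SGLT2i libraries between 23.4 and 61.1 TPM (median 34.6). The groups overlapped over most of their range, and the highest HFpEF+Veh value belonged to V2523, the library with the most hepatocyte transcripts. The log2 fold change was -0.25 for HFpEF+Veh against non_failing (SE 0.20, adjusted p = 0.573, edgeR), and -0.41 without V2523 (adjusted p = 0.235, edgeR). It was 0.28 for TYA-018 against HFpEF+Veh (SE 0.18, adjusted p = 0.440, edgeR) and 0.09 for empagliflozin against HFpEF+Veh (interval -0.28 to 0.46, adjusted p = 0.905, edgeR). Without V2523 these 2 were 0.44 (adjusted p = 0.166, edgeR) and 0.25 (adjusted p = 0.621, edgeR). Depth moved with Atp1b1 as well, with a Pearson r of 0.53 between its log2 CPM and log2 depth after removal of group means. The 4 deep HFpEF+SGLT2i libraries lay between 39.7 and 61.1 TPM and the other 7 between 23.4 and 34.9 TPM. The part of depth was not tested beyond the fits given here.

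Atp1b1 moved with a property of the whole library. The deposited table of effective lengths gives, per gene and library, the transcript length open to fragments after the authors' corrections. The median shift of this length over all tested genes ran from -0.14 to 0.18 on the log2 scale across libraries. After removal of group means, log2 CPM of Atp1b1 and this shift had a Pearson r of 0.82 over 38 libraries, against 0.65 for Scn4b, 0.26 for Fxyd1 and 0.21 for Slc5a1. With the shift as a covariate, an alternative added after seeing the data, Atp1b1 was called in 3 comparisons by edgeR. The log2 fold changes were 0.40 for TYA-018 against HFpEF+Veh (adjusted p = 0.0251), 0.54 for TYA-018 against empagliflozin (adjusted p = 0.00734) and -0.33 for empagliflozin against non_failing (adjusted p = 0.0310). Which fit is nearer to the tissue was not tested.

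Within the pump, Atp1b1 accounted for 61.5% ± 5.30 of the summed TPM of Atp1b1, Atp1b2 and Atp1b3 in non_failing (SD, n = 8), 55.5% ± 7.96 in HFpEF+Veh (n = 8), 60.2% ± 5.70 in the TYA-018 group (n = 11) and 57.5% ± 7.69 in HFpEF+SGLT2i (n = 11). None of the 6 differences passed, and the lowest exact permutation p was 0.0990 for HFpEF+Veh against non_failing (adjusted p = 0.264).

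**Figure D3:**
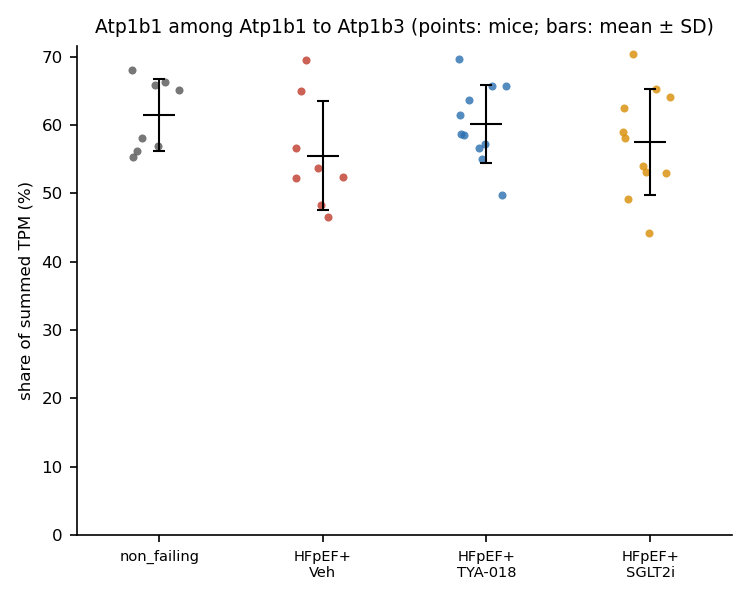
Share of Atp1b1 in the summed TPM of Atp1b1, Atp1b2 and Atp1b3 (vertical axis, percent, from 0) by group, with points for mice and bars for the mean ± SD. The means lie between 55.5% in HFpEF+Veh and 61.5% in non_failing, and the 4 groups overlap.

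Fxyd1, the pump's inhibitor, was the most abundant and the least variable member. The non_failing libraries lay between 112 and 221 TPM (median 167), the HFpEF+Veh libraries between 113 and 185 TPM (median 141), the HFpEF+TYA-018 libraries between 121 and 194 TPM (median 172) and the HFpEF+SGLT2i libraries between 105 and 179 TPM (median 160.0). The groups overlapped, although 5 of 11 HFpEF+TYA-018 libraries lay above the highest library of HFpEF+Veh.

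The fitted differences of Fxyd1 were small and none was called. HFpEF+Veh lay 0.27 below non_failing on the log2 scale, a log2 fold change of -0.27 (SE 0.11, interval -0.48 to -0.05, p = 0.0186, adjusted p = 0.199, edgeR). TYA-018 lay above HFpEF+Veh by 0.30 (SE 0.10, interval 0.10 to 0.51, p = 0.00506, adjusted p = 0.104, edgeR), with 11 of 11 libraries above the HFpEF+Veh mean in log2 CPM scaled by TMM and 7 of 11 in TPM. TYA-018 lay above empagliflozin by 0.23 (interval 0.04 to 0.42, p = 0.0170, adjusted p = 0.273, edgeR). The mean of Fxyd1 was 148 TPM in HFpEF+Veh, 165 TPM in HFpEF+TYA-018 and 151 TPM in HFpEF+SGLT2i. These differences depended on the scaling. With library size alone or with limma on TPM, 0 members had an unadjusted p under 0.05 in either comparison. With DESeq2, or with its size factors in edgeR, 1 member did in each. Empagliflozin differed from HFpEF+Veh by 0.07 (interval -0.13 to 0.27, adjusted p = 0.854, edgeR), which allows at most a 1.21-fold rise. With the library length shift as a covariate, TYA-018 against HFpEF+Veh was called at 0.31 (adjusted p = 0.0493, edgeR). Of 8 cardiomyocyte markers, 4 were called lower in HFpEF+Veh than in non_failing and 0 higher (median log2 fold change -0.36), and the median was 0.18 in HFpEF+TYA-018 against HFpEF+Veh. Of 6 fibroblast markers, 2 were called higher in HFpEF+Veh than in non_failing and 0 lower (median 0.31), and the median was -0.23 in HFpEF+TYA-018 against HFpEF+Veh. In that last comparison all 6 hepatocyte genes were called lower (median -7.61), as was 1 of 3 tested fast skeletal muscle markers, and 0 of either list higher. The hepatocyte sum had a median of 3.47 CPM in HFpEF+Veh, where V2523 reached 1855 CPM, and of 0.724 CPM in HFpEF+TYA-018. The fast skeletal muscle sum had a median of 2.34 CPM in HFpEF+Veh, where V2532 reached 131 CPM, and of 1.91 CPM in HFpEF+TYA-018. The part of these markers in the values of Fxyd1 was not tested.

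**Figure D4:**
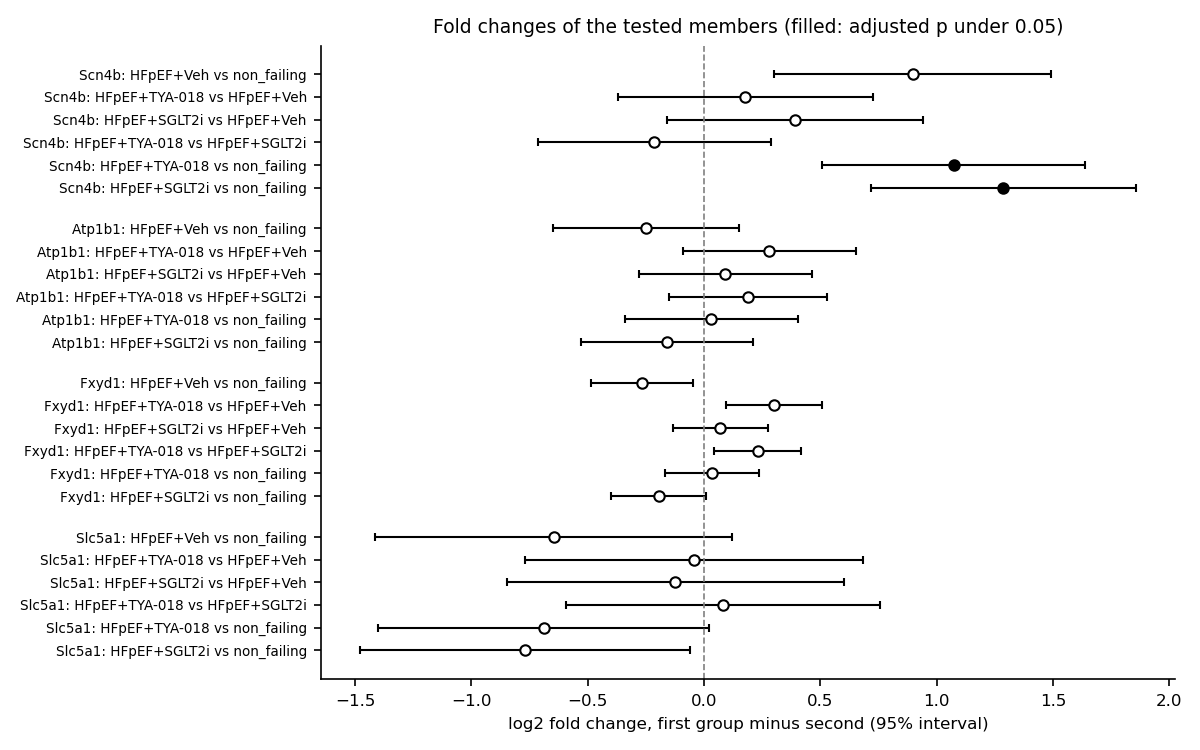
Log2 fold changes of the 4 tested members in the 6 comparisons (horizontal axis, first group minus second), with points for the estimate of edgeR, bars for its 95% interval and filled points for an adjusted p under 0.05. The only filled points are Scn4b in HFpEF+TYA-018 against non_failing at 1.07 and in HFpEF+SGLT2i against non_failing at 1.29.

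Slc5a1, which encodes SGLT1, was scarce but present in 38 of 38 libraries. The expected counts were 5 to 28 in the non_failing libraries (median 13.5), 2 to 29 in HFpEF+Veh (median 9), 1 to 23 in HFpEF+TYA-018 (median 8) and 3 to 21 in HFpEF+SGLT2i (median 6). A level that would give 3 counts was taken as the detection floor of a library, between 0.0506 and 0.140 CPM, and 34 of 38 libraries lay above it, namely 8 of 8 non_failing, 6 of 8 HFpEF+Veh, 10 of 11 HFpEF+TYA-018 and 10 of 11 HFpEF+SGLT2i libraries.

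Summed over the group, Slc5a1 had 123 counts in non_failing, which is 0.475 CPM with an exact Poisson 95% interval of 0.395 to 0.567. It had 88 counts or 0.337 CPM in HFpEF+Veh (interval 0.271 to 0.416), 98 counts or 0.281 CPM in HFpEF+TYA-018 (interval 0.228 to 0.343) and 112 counts or 0.291 CPM in HFpEF+SGLT2i (interval 0.240 to 0.350). These intervals cover counting error only and not the spread between mice, which was wide. The level per library was 0.471 ± 0.246 CPM in non_failing (SD, n = 8), 0.311 ± 0.185 CPM in HFpEF+Veh (n = 8), 0.276 ± 0.161 CPM in the TYA-018 group (n = 11) and 0.268 ± 0.107 CPM in HFpEF+SGLT2i (n = 11), so neighbours in this order differed by less than 1 SD.

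No difference of Slc5a1 was called. The largest fitted one was HFpEF+SGLT2i against non_failing, a log2 fold change of -0.77 (SE 0.35, interval -1.48 to -0.06, p = 0.0338, adjusted p = 0.205, edgeR), with 11 of 11 libraries below the control mean in log2 CPM and in TPM. It was -0.53 without the highest control library, V2501 (adjusted p = 0.437, edgeR). HFpEF+Veh against non_failing gave -0.65 (interval -1.41 to 0.12, adjusted p = 0.417, edgeR) and HFpEF+TYA-018 against non_failing gave -0.69 (interval -1.40 to 0.02, adjusted p = 0.245, edgeR), and without V2501 these were -0.41 (adjusted p = 0.699, edgeR) and -0.45 (adjusted p = 0.490, edgeR). Against HFpEF+Veh, empagliflozin gave -0.12 (adjusted p = 0.939, edgeR), with a fold between 0.555 and 1.52, and TYA-018 gave -0.04 (adjusted p = 0.965, edgeR), with an interval from -0.77 to 0.68 on the log2 scale. Slc5a1 entered the comparisons between HFpEF groups only through the model of the 4 groups, where its mean was highest in non_failing. In fits of these groups alone it failed the filter.

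**Figure D5:**
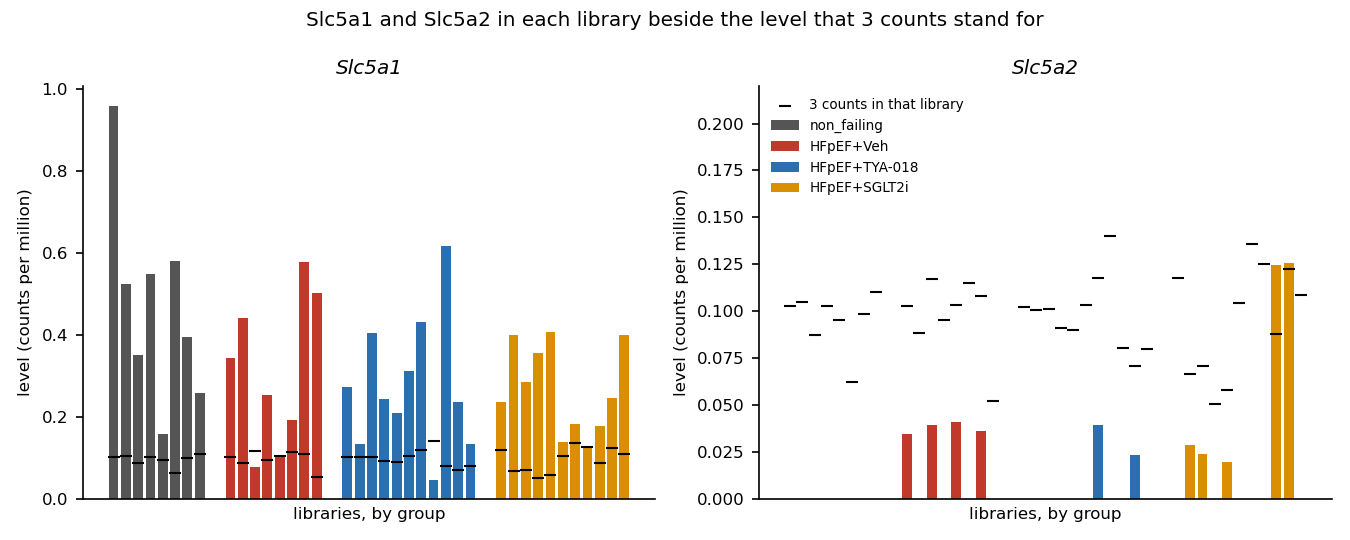
Level in CPM (vertical axes, from 0) of Slc5a1 and Slc5a2 in each library by group, as bars, beside the level that 3 counts stand for in that library, as dashes. Slc5a1 lies above the dash in 34 of 38 libraries and Slc5a2 in 2 of 38.

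Slc5a2, the target of empagliflozin in the kidney, was at or near 0. No count was assigned to it in the 8 non_failing libraries. It had a count in 4 of 8 HFpEF+Veh libraries (V2521, V2526, V2528 and V2530, the highest 1.18), in 2 of 11 HFpEF+TYA-018 libraries (V2551 and V2559, 1 count each) and in 5 of 11 HFpEF+SGLT2i libraries (V2562, V2563, V2565, V2573 and V2574). Only HFpEF+SGLT2i V2573 with 4.24 and V2574 with 3.08 expected counts lay above 3 counts.

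Over a group, the 0 counts of non_failing allow up to 0.0116 CPM at a floor of 3 counts in 259 M, and the exact Poisson 95% interval reaches 0.0142 CPM. The summed level was 0.0160 CPM in HFpEF+Veh (exact Poisson 95% interval 0.00418 to 0.0393), 0.00574 CPM in HFpEF+TYA-018 (interval 0.000695 to 0.0207) and 0.0276 CPM in HFpEF+SGLT2i (interval 0.0143 to 0.0511), where the counts were rounded for the interval. Over the whole series Slc5a2 had 16.8 expected counts of 1253 M, against 421 for Slc5a1. Its TPM is not compared between groups here, since 1 count was worth 0.0363 TPM in V2559 and 0.112 TPM in V2565, where the effective lengths given for the gene were 479 and 134 bases. Differences between groups in CPM did not pass two-sided exact permutation tests or, between the drugs, a permutation test with 100000 resamples. The lowest p was 0.0769 for HFpEF+Veh against non_failing (adjusted p = 0.240), which is the smallest that 4 libraries with a count among 16 can give, so that test could not have passed. The tests of HFpEF+TYA-018 and HFpEF+SGLT2i against non_failing could not have passed in the direction of a higher level with drug either, since every library with a count (2 and 5) was already in the drug group. HFpEF+SGLT2i against HFpEF+Veh gave 0.0105 CPM (exact permutation p = 0.570, adjusted p = 0.570), and 0.00088 CPM when V2574 was left out.

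A listed 0 does not by itself show that a transcript was absent. Slc8a1, the sodium-calcium exchanger that heart muscle uses, is listed at 0 in all 38 libraries. Markers of the tissues best known for these carriers were scarce. Of 8 proximal tubule markers, Slc34a1, Slc22a6, Kap and Slc5a12 were at 0 in 38 of 38 libraries, and Cubn was above 0 in every library, so that the list summed to 1.81 to 5.69 CPM. Slc22a8 was at 0 in 17 libraries, Lrp2 in 13 and Slc6a19 in 7. The median of Lrp2 was 0.500 CPM in non_failing, 0.133 in HFpEF+Veh, 0.0392 in HFpEF+TYA-018 and 0 in HFpEF+SGLT2i. Of the 4 intestinal markers in the table, Cdx2 was at 0 in 38 libraries, Cdh17 in 31, Fabp2 in 30 and Vil1 in 0. The intestinal list summed to 0.116 to 1.40 CPM in non_failing and 0.243 to 6.23 CPM in HFpEF+Veh, where V2523 was the highest. Vil1 was called higher in HFpEF+Veh than in non_failing (log2 fold change 1.63, adjusted p = 0.0432, edgeR), but not without V2523 (0.44, adjusted p = 0.471, edgeR). Their part in the counts of Slc5a1 and Slc5a2 was not tested.

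The wider machinery was read from a list of 69 sodium handling genes, of which 68 were in the table and 45 were tested. This list too was chosen with earlier results of these data known. Called genes numbered 1 in HFpEF+Veh against non_failing (2.22% of the list, against 3.15% of all genes), 1 in HFpEF+TYA-018 against HFpEF+Veh (2.22% against 1.93%), 0 in HFpEF+SGLT2i against HFpEF+Veh, 0 between the drugs, 3 in HFpEF+TYA-018 against non_failing (6.67% against 7.39%) and 5 in HFpEF+SGLT2i against non_failing (11.1% against 6.45%). In the comparisons with 0 calls by edgeR, 8 and 6 of the 45 list genes had an unadjusted p under 0.05, beside 10.05% and 13.2% of all genes, and DESeq2 and limma called 0 in each. The median log2 fold change of the list stayed between -0.03 and 0.06 in the 6 comparisons, and that of all tested genes between -0.01 and 0.01.

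Among regulators of the cardiac sodium current, Camk2d, a calcium- and calmodulin-dependent kinase, was 26.7 ± 2.58 TPM in non_failing (SD, n = 8), 23.3 ± 1.80 in HFpEF+Veh (n = 8), 21.1 ± 3.05 in the TYA-018 group (n = 11) and 19.6 ± 3.21 in HFpEF+SGLT2i (n = 11). It fell against non_failing with a log2 fold change of -0.46 in HFpEF+SGLT2i (adjusted p = 0.000329, edgeR) and -0.33 in HFpEF+TYA-018 (adjusted p = 0.00924, edgeR). HFpEF+Veh lay on the same side without a call (-0.28, 8 of 8 libraries below the control mean, adjusted p = 0.0786, edgeR). Against HFpEF+Veh, Camk2d was not called with empagliflozin (-0.18, adjusted p = 0.445, edgeR) or TYA-018 (-0.05, adjusted p = 0.787, edgeR). Rangrf, which helps cardiac sodium channels to the cell surface, rose by 0.35 with TYA-018 against HFpEF+Veh (adjusted p = 0.0400, edgeR), from 61.8 ± 4.83 TPM (SD, n = 8) to 71.3 ± 10.1 TPM (n = 11), beside 66.7 ± 10.8 TPM in non_failing (n = 8) and 63.2 ± 9.87 TPM in HFpEF+SGLT2i (n = 11). The Rangrf call held in 6 of 14 alternatives and in 26 of 38 fits that left out 1 library (adjusted p up to 0.195 and 0.0798), whereas the calls of Camk2d held in all of them.

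Of the pore subunits, Scn4a, the channel of skeletal muscle, was 1.42 ± 0.459 TPM in non_failing (SD, n = 8), 1.90 ± 0.558 in HFpEF+Veh (n = 8), 1.88 ± 0.654 in the TYA-018 group (n = 11) and 2.67 ± 0.541 in HFpEF+SGLT2i (n = 11). The last rose against non_failing by 0.94 on the log2 scale (adjusted p = 0.00164, edgeR), and 10 of 11 libraries lay above every control library. HFpEF+Veh against non_failing (0.37, adjusted p = 0.375, edgeR) and empagliflozin against HFpEF+Veh (0.57, adjusted p = 0.197, edgeR) were not called. Scn10a, a channel known from sensory neurons, was 0.279 ± 0.0505 TPM in non_failing (SD, n = 8), 0.167 ± 0.0689 in HFpEF+Veh (n = 8), 0.187 ± 0.0734 in the TYA-018 group (n = 11) and 0.125 ± 0.0775 in HFpEF+SGLT2i (n = 11). The last fell against non_failing by 1.17 on the log2 scale (adjusted p = 0.0456, edgeR). HFpEF+Veh against non_failing gave -0.82 with 8 of 8 libraries below the control mean (adjusted p = 0.304, edgeR), and empagliflozin against HFpEF+Veh gave -0.35 (adjusted p = 0.796, edgeR), neither of them called. The Scn10a call held in 11 of 14 alternatives and in 24 of 38 fits that left out 1 library (adjusted p up to 0.0967 and 0.0863), and that of Scn4a held in all of them. The fast skeletal muscle markers summed to 1.66 to 7.78 CPM in non_failing, 0.854 to 2.69 CPM in HFpEF+SGLT2i and 131 CPM in HFpEF+Veh V2532. Of the 3 that were tested, 0 were called in HFpEF+SGLT2i against non_failing. Purkinje and conduction cell markers summed to 36.8 to 56.3 CPM in non_failing and 46.5 to 68.4 CPM in HFpEF+SGLT2i, with no gene of that list called in any comparison. Of 7 tested neuron and Schwann cell markers, 1 was called higher and 0 lower in HFpEF+SGLT2i than in non_failing. In HFpEF+TYA-018 against non_failing, 2 of them were called higher and 1 lower. Cardiomyocyte markers, 4 of 8 of which were called lower in HFpEF+SGLT2i than in non_failing and none higher, summed to 30488 to 42328 CPM in non_failing and 22802 to 34889 CPM in HFpEF+SGLT2i. The part of cell composition in these results was not tested.

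Patterns like those of the members were looked for over all tested genes, by Pearson r of log2 CPM over the 38 libraries, which share depth and processing. They are given as a description. The 3 genes most like Scn4b were Me1, the malic enzyme (r = 0.95), Slc25a20, the carnitine-acylcarnitine carrier of mitochondria (r = 0.92) and Cat, catalase (r = 0.92), and within groups the values were 0.94, 0.88 and 0.89. Me1 had a mean of 22.7 ± 5.54 TPM in non_failing (SD, n = 8), 31.7 ± 10.5 in HFpEF+Veh (n = 8), 30.7 ± 5.67 in the TYA-018 group (n = 11) and 33.8 ± 10.5 in HFpEF+SGLT2i (n = 11). The genes most like Atp1b1 were Slc31a1, a copper transporter, Cpped1 and Hmgb3 (r = 0.94 each), and those most like Fxyd1 were Aes (0.89), Chchd10 (0.87) and Tubg1 (0.86). For Slc5a1 the values were lower, with Gtf2b at 0.74 and Mpp6 and Trappc13 at 0.65 each, and the gene itself had 1 to 29 counts per library.

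The members also varied with each other. After removal of group means, Scn4b and Atp1b1 had r = 0.77, Atp1b1 and Fxyd1 0.57, Scn4b and Fxyd1 0.48, and Slc5a1 reached 0.36 with Atp1b1, 0.28 with Scn4b and 0.13 with Fxyd1. Pooled over the groups, r was 0.51 for Scn4b with Atp1b1, 0.63 for Atp1b1 with Fxyd1 and 0.24 for Scn4b with Fxyd1. For Slc5a1 the pooled r was 0.37 with Atp1b1, -0.0091 with Scn4b and 0.18 with Fxyd1. Scn4b and Atp1b1 thus tended to be high in the same libraries: HFpEF+SGLT2i V2562 held the highest Scn4b (19.0 TPM) and the highest Atp1b1 (61.1 TPM) of its group, and V2572 the lowest of both (3.72 and 23.4 TPM). The highest libraries of Scn4b and Atp1b1 differed in HFpEF+Veh (V2532 and V2523), HFpEF+TYA-018 (V2548 and V2543) and non_failing (V2503 and V2508). Depth and the library length shift moved with both genes, as given above, and their part in this relation was not tested.

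The effective length of the members was compared in 24 tests. For Slc5a1 it was 2806 ± 63.7 bases in non_failing (SD, n = 8), 2821 ± 97.2 in HFpEF+Veh (n = 8), 2746 ± 81.1 in the TYA-018 group (n = 11) and 2879 ± 75.8 in HFpEF+SGLT2i (n = 11). It was 133 bases shorter with TYA-018 than with empagliflozin in 11 of 11 libraries against the mean of the other group (permutation test with 100000 resamples, p = 0.000390, adjusted p = 0.00936). No other length difference passed. The annotation gives Slc5a1 a single transcript, and its length followed the shift of the whole library (r = 0.92 within groups, 38 libraries), as did those of Scn4b (0.97), Atp1b1 (0.98) and Fxyd1 (0.76). A change of the transcript itself was not tested.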

How the data were processed

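RNA of the left ventricle was sequenced after poly(A) selection, with 1 library per mouse. The authors trimmed reads with fastp, quantified transcripts with salmon 1.6.0, with corrections for sequence, GC and position, and summed them to genes with tximport. They deposited the expected counts per gene, which are not normalized. The authors also deposited TPM (transcripts per 1000000, scaled for transcript length and library) and the effective length of each gene in bases. Labels and methods disagree on the sex of the mice, the length of treatment, the read layout and the genome build, none of which entered a test, and the build behind the counts is not settled here.

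Expected counts were rounded and tested with edgeR 4.0.16 in R 4.3.3 (filterByExpr, TMM, quasi-likelihood F-test, 1 model of the 4 groups, Benjamini-Hochberg over 13765 genes). Fold changes are per CPM and not per length. The share of Atp1b1, lengths and Slc5a2 were compared by two-sided exact permutation tests (100000 resamples between the 2 groups of 11), adjusted within families of 24, 24 and 6 tests, the first of which holds 18 tests of relative amounts that are not reported here. Intervals from Poisson counts and the floor of 3 counts cover counting error only. The scripts were tested on simulated data.

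The named genes were the 5 members, the genes of the sodium handling list that were called in any comparison (some are not reported here), the partners that form a ratio with a member, and the 3 genes most like each tested member. The members and lists were chosen with earlier results of these data known. Alternatives were DESeq2 1.42.0, its size factors, library size alone, other filters, a length offset, fits of 2 groups, 1 surrogate variable (sva 3.50.0), limma 3.58.1 on log2(TPM + 1) and log2(TPM + 0.1) of genes counted in at least 90% of libraries, and libraries left out. Covariates for depth and length, and the libraries under 40 M counts, were added after seeing the data.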

Additional observations from a re-analysis of the deposited data

Results flagged for a closer look

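The effective length given for Slc5a1 was 3047.79 bases in HFpEF+Veh V2532, against 2842.13 bases in the next library of the 8, a gap of 0.694 of the range of the group. V2532 was also the deepest library of its group (57.7 M counts) and the one with the highest Scn4b. Of 25 groups of values examined in this way, 1 was flagged, and chance flags about 5% of groups. Only the values of non_failing and HFpEF+Veh were examined, since the rule was not applied to groups of 11, so the drug groups were not checked. The groups of values are not independent, since effective lengths of different genes move together across libraries. The cause was not tested.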

How the results depend on the processing

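No paired analysis was possible because the labels number each mouse once and no number is shared between groups. The calls of Scn4b in HFpEF+TYA-018 and HFpEF+SGLT2i against non_failing held in all 38 fits that left out 1 library (log2 fold changes 0.99 to 1.19 and 1.15 to 1.40, adjusted p by edgeR 0.00675 to 0.0316 and 0.00140 to 0.00971). They also held under every other alternative except that the libraries under 40 M ended the second. Where a value below changed side or sign, the cause was not tested. Depth limits Slc5a1 and Slc5a2 in every comparison.

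Values of the members are log2 fold changes. With the surrogate variable, Scn4b in HFpEF+Veh against non_failing was called at 0.74, Slc5a1 in HFpEF+TYA-018 against HFpEF+Veh turned to 0.12 and Scn4b in HFpEF+TYA-018 against HFpEF+SGLT2i to 0.053. Without V2523 and V2532, Slc5a1 turned to 0.24 in HFpEF+TYA-018 and 0.16 in HFpEF+SGLT2i against HFpEF+Veh. With the depth covariate, Scn4b in HFpEF+Veh against non_failing was called at 0.81 and Slc5a1 in HFpEF+TYA-018 against HFpEF+Veh was 0.0059. With the length covariate, these 2 were 0.93 (called) and 0.011. That covariate also gave calls of Atp1b1 (0.40) and Fxyd1 (0.31) in HFpEF+TYA-018 against HFpEF+Veh, and of Atp1b1 between the drugs (0.54) and in HFpEF+SGLT2i against non_failing (-0.33). It turned Atp1b1 in HFpEF+SGLT2i against HFpEF+Veh to -0.14 and Scn4b between the drugs to 0.25.

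In the libraries under 40 M, Scn4b in HFpEF+SGLT2i against non_failing was 0.77 and no longer called. Slc5a1 in HFpEF+TYA-018 against HFpEF+Veh turned to 0.13, Scn4b between the drugs to 0.25, and in HFpEF+SGLT2i against HFpEF+Veh Atp1b1 turned to -0.17 and Fxyd1 to -0.00030. The share of Atp1b1 among the pump beta subunits in HFpEF+SGLT2i against HFpEF+Veh turned to -1.22 percentage points.

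Small differences changed sign with the scaling. With library size alone, Fxyd1 was -0.0074 in HFpEF+SGLT2i against HFpEF+Veh, and in HFpEF+TYA-018 against non_failing Atp1b1 was -0.023 and Fxyd1 -0.024. In the last comparison limma gave -0.0077 (pseudocount 1) and -0.0079 (pseudocount 0.1) for Atp1b1 and -0.011 with both for Fxyd1. Limma with 0.1 gave -0.012 for Slc5a1 between the drugs.

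The number of genes called moved more. HFpEF+Veh against non_failing gave 670 with the surrogate variable and 916 without V2523 and V2532. HFpEF+TYA-018 against HFpEF+Veh gave 1096 with library size alone, 618 without a filter, 164 with a stricter filter, 58 in a fit of 2 groups, 824 with the surrogate variable, 521 with DESeq2, 42 and 24 with limma, 90 without V2523 and V2532 and 872 with the length covariate. HFpEF+SGLT2i against HFpEF+Veh gave 457 without a filter, 42 with a stricter filter, 3 in a fit of 2 groups, 233 with DESeq2, 0 with limma, 20.0 without V2523 and V2532 and 0 in the libraries under 40 M. Between the drugs it was 5 with the length offset, 14 with the surrogate variable, 184 with DESeq2, 593 with the length covariate and 78 in the libraries under 40 M. Against non_failing, limma gave 597 and 616 for HFpEF+TYA-018 and 527 and 558 for HFpEF+SGLT2i, where the length covariate gave 1860 for the latter.

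Of the sodium handling list, HFpEF+Veh against non_failing gave 0 with library size alone, without a filter and with limma, 5 with the surrogate variable, 4 without V2523 and V2532, 3 with the depth covariate, 4 with the length covariate and 2 under 40 M. HFpEF+TYA-018 against HFpEF+Veh gave 0 with library size alone, a stricter filter, 2 groups, limma, without V2523 and V2532 and under 40 M, 2 with the surrogate variable and 6 with the length covariate. The length covariate gave 3 between the drugs, 6 in HFpEF+TYA-018 and 9 in HFpEF+SGLT2i against non_failing, where the fit of 2 groups gave 3.

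When 1 library was left out, the genes called ranged from 167 to 393 in HFpEF+TYA-018 against HFpEF+Veh, from 2 to 175 in HFpEF+SGLT2i against HFpEF+Veh (2 without V2523) and from 0 to 17 between the drugs, and those of the list from 0 to 3 in HFpEF+Veh against non_failing, 0 to 1 in each drug group against HFpEF+Veh and 3 to 6 in HFpEF+SGLT2i against non_failing. Scn4b in HFpEF+Veh against non_failing ranged from 0.67 to 1.02, and was called without V2530. The other ranges that crossed 0 or the threshold were -0.25 to 0.13 (HFpEF+TYA-018), 0.052 at most and -0.26 at least (HFpEF+SGLT2i) for Slc5a1 against HFpEF+Veh and -0.12 to 0.18 between the drugs. They were -0.012 to 0.25 for Atp1b1 in HFpEF+SGLT2i against HFpEF+Veh, and in HFpEF+TYA-018 against non_failing -0.040 to 0.072 for Atp1b1 and -0.0083 to 0.11 for Fxyd1. Effective lengths crossed 0 for Atp1b1 (-16.5 to 25.9 bases in HFpEF+SGLT2i against non_failing and -30.2 to 25.3 in HFpEF+TYA-018 against HFpEF+Veh), Fxyd1 (-1.93 to 1.39 between the drugs and -0.28 to 3.82 in HFpEF+TYA-018 against HFpEF+Veh) and, in HFpEF+Veh against non_failing, Scn4b (-73.8 to 6.77) and Slc5a1 (-17.7 to 28.5). Effective lengths passed when 1 library was left out for Slc5a1 in HFpEF+SGLT2i against HFpEF+Veh (exact permutation adjusted p = 0.0468 without V2532), for Fxyd1 in HFpEF+SGLT2i against non_failing (0.00641 without V2502) and for Scn4b between the drugs (0.0256 without V2543 and 0.0390 without V2548).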
